A study of Rattus norvegicus with 4 samples.

Results

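The genes described here encode the relay that runs from heptahelical receptors to cyclic AMP in the cell: heterotrimeric G protein subunits, the regulators of G protein signalling (RGS proteins), adenylyl cyclases, cyclic nucleotide phosphodiesterases, protein kinase A, the A-kinase anchoring proteins, and, because they share the Prka name, the subunits of the AMP-activated kinase. Membership was set by symbol, under a rule chosen with earlier results of these data known. All probe sets of the array whose single gene symbol starts with Gnai, Gnao, Gnaq, Gnas, Gna1, Gnal, Gnaz, Gnb1 to Gnb5, Gng, Rgs, Adcy, Pde, Prka or Akap were taken, which gave 65 of 4736 genes and 99 of 7006 named probe sets. A further 2 probe sets that carry several symbols, such as Gnai1 together with Gnai3, were left out.

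In the uterus, receptors that couple to Gs raise cyclic AMP through adenylyl cyclase and relax the muscle, those that couple to Gi restrain the cyclase, and those that couple to Gq release calcium and contract it. RGS proteins speed the hydrolysis of GTP on G alpha subunits and so shorten the signal. Phosphodiesterases break cyclic AMP and cyclic GMP down, and anchoring proteins hold protein kinase A next to its substrates.

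Rats aged 60 days, whose ovaries had been removed a week earlier, received estradiol benzoate under the skin at 10 µg/kg or the vehicle, and the myometrium, the muscle wall of the uterine horns, was frozen 6 or 24 h later. The 4 groups were therefore control and estradiol at 6 h and control and estradiol at 24 h, all in animals without ovaries. RNA of 6 animals was pooled for each group and hybridised to 1 array, so there is no spread between replicates, no difference was tested, and animals within a pool cannot be told apart. A signal is the intensity of a probe set on a linear scale with a trimmed mean of 500 on each array. A value counts as measured above a floor set at each array's 40th percentile, between 89.5 and 108 signal units, and a gene counts as different when its signals, raised to the floor, differ at least 2-fold. Signals are given in 1 order throughout, the array labelled estradiol first and its control second, for 24 h and then for 6 h.

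The labels at 6 h go against known estrogen targets. Igf1, an estrogen-induced growth factor, had signals of 5182 (estradiol) and 665 (control) at 24 h but of 704 (labelled estradiol) and 7872 (labelled control) at 6 h, and Pgr, S100g and Hsd11b2 ran the same way. Every 6 h direction below therefore follows the labels only, and exchanging the 6 h labels would turn each of them. The exchange would also put an estradiol array in place of the 6 h control wherever the controls are compared. The pair of 24 h arrays shared a scan day and the pair of 6 h arrays another, so the time point cannot be told apart from the scan day, and 9 spiked-in control probe sets were 2.32-fold brighter at 24 h by geometric mean. The instrument record of the 24 h control reports a communication error during a wash. The 3′ probe sets of Gapdh were 1.05 to 1.15 times as bright as the 5′ ones, and those of Actb reached 1.39 times.

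Markers of smooth muscle were above the floor on all 4 arrays for 7 of 7 genes, with summed signals of 84025 and 75191 at 24 h and 55342 and 72055 at 6 h, and none differed 2-fold at either time. Epithelial markers ran in the directions of Igf1: 6 of 7 were at least 2-fold higher with estradiol at 24 h, where their summed signal was 6147 against 1558, and 4 of 6 were lower with the estradiol label at 6 h, where it was 952 against 3972. None of the 7 epithelial genes was under the floor on every array. Nerve markers, of which Syt1, Nefm and S100b were under the floor on every array, had summed signals of 647 against 1107 at 24 h and 619 against 1164 at 6 h, with 0 of 6 and 1 of 5 measured genes lower. The sums with and without estradiol were 4930 and 4482 at 24 h and 4504 and 5643 at 6 h for macrophages and leukocytes, of which Itgam alone was under the floor throughout. There 1 of 7 measured genes was higher and 2 were lower at 24 h, and 0 of 6 differed at 6 h. The higher gene, Lyz2, read 3236 with and 997 without estradiol at 24 h and so made up most of the estradiol sum. The other measured genes of this list all had log2 differences below 0 at 24 h, from -1.36 for Cd53 to -0.41 for Csf1r. For endothelium the sums were 761 and 1348, then 1044 and 1325, with 1 of 4 genes lower at each time and none under the floor throughout. For pericytes and fibroblasts they were 47487 and 45675, then 35586 and 32949, with 0 of 7 apart at 24 h, 1 higher and 1 lower at 6 h, and none under the floor throughout. For adipocytes, where Plin1 was under the floor throughout, they were 2404 and 5770, then 4282 and 4741, with 2 of 3 lower at 24 h and 1 of 4 higher at 6 h. Lep, at 1901 and 2411 at 24 h, and Lpl, at 456 and 2775, made up most of these sums. Fabp4 was above the floor only on the array labelled control at 6 h. The part of these cell types in the differences below was not tested.

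Of the 65 genes 37 were above the floor on all 4 arrays, 16 on 1 to 3 arrays and 12 on none. That is 56.9% on all arrays and 18.5% on none, against 56.0% and 23.6% of all genes. The 12 genes under the floor everywhere were Gnal, the G alpha subunit of olfactory neurons, Gnb3, Rgs1, Rgs8, Adcy8, Adcy10, Pde1c, Pde7a, Prkar2b, Akap4, Akap5 and Akap14. All 5 G gamma subunit genes and 5 of 6 protein kinase A subunit genes were above the floor on every array, against 4 of 12 phosphodiesterases, 4 of 7 adenylyl cyclases and 3 of 9 RGS genes. A gene below the floor is not shown to be silent, since the floor is a rank on the array and not a detection limit.

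**Figure D1:**
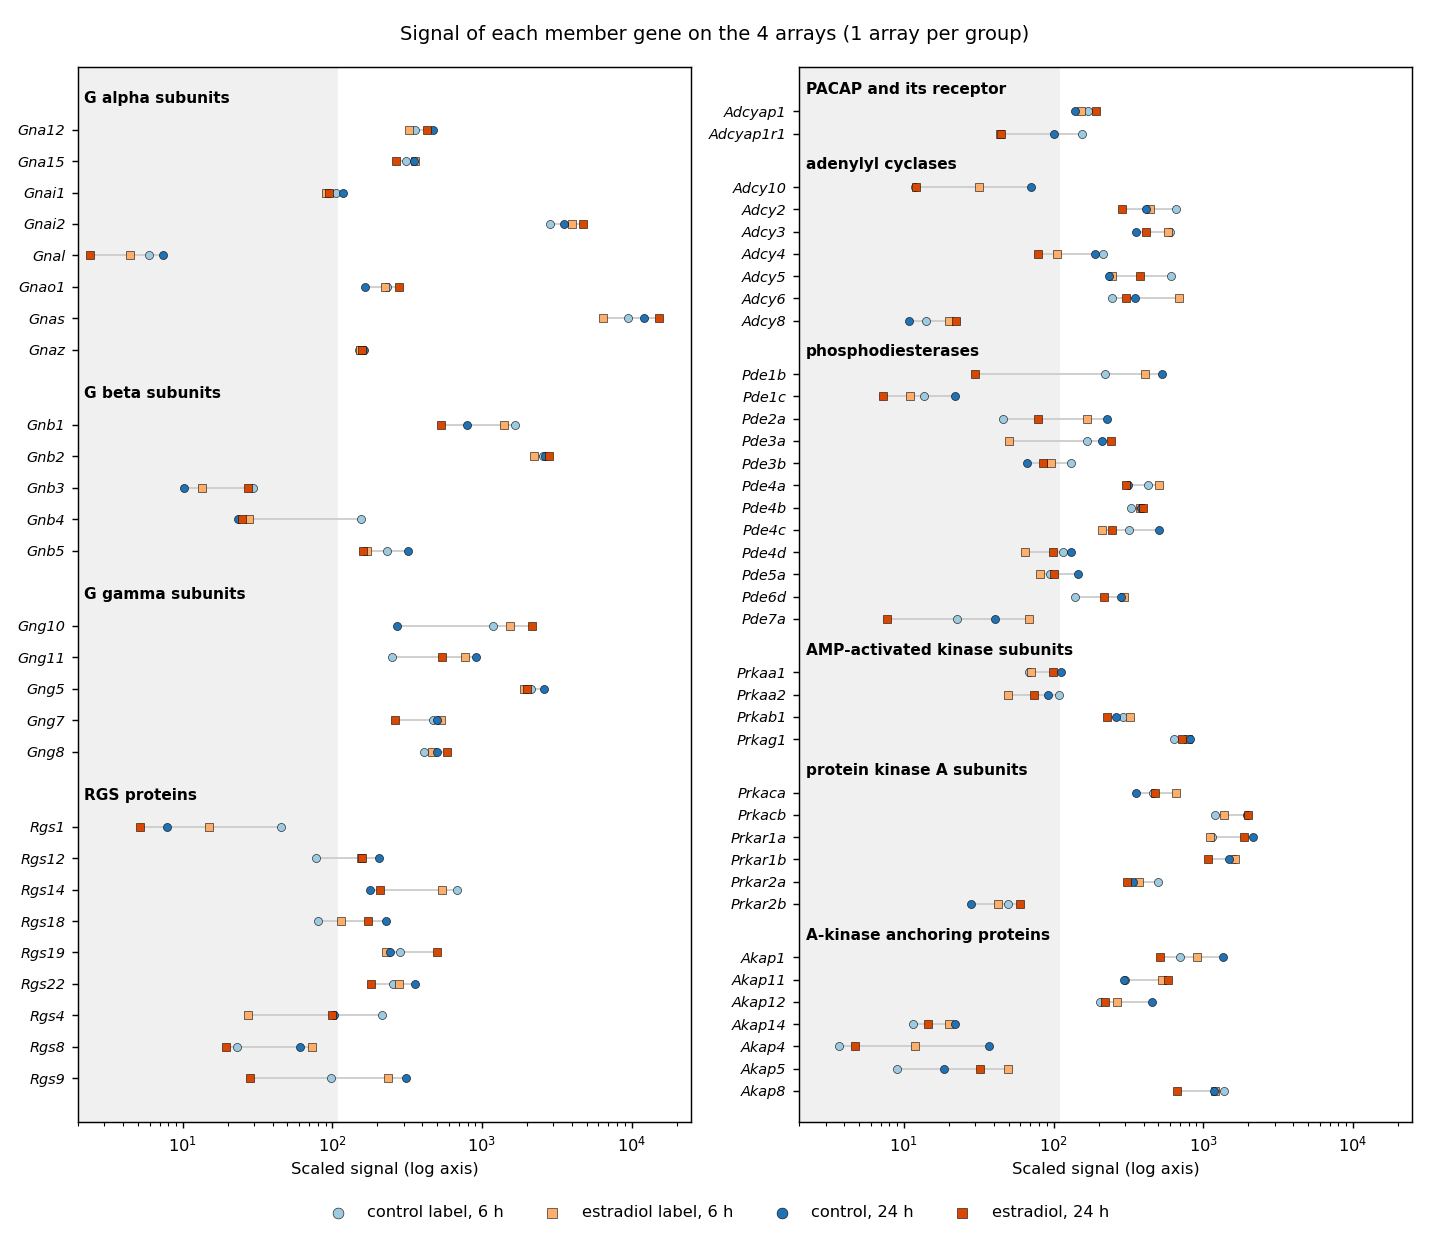
Scaled signal (log axis) of each of the 65 member genes on the 4 arrays, ordered by class; each point is 1 array and the shaded area ends at the highest floor, 108. G gamma and most protein kinase A genes lie to the right of the shading on every array, while 12 genes lie inside it on all 4.

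At 24 h 2 of the 49 members measured in that comparison were at least 2-fold higher with estradiol and 7 were lower. Over all 3442 genes measured 9.12% were higher and 8.45% lower, against 4.08% and 14.3% of the members. Gng10 and Rgs19 were higher. Pde1b, Pde2a, Pde4c, Rgs9, Adcy4, Akap1 and Akap12 were lower, so 3 of the 7 lower genes were phosphodiesterases. The share of lower members depends on the scaling: with arrays set to a common median, which moves the median of all genes by 0.14 on the log2 scale, or with quantile normalization, 3 members were higher and 4 lower, with Adcy4, Akap12 and Pde4c under 2-fold. The common median gave 388 higher and 205 lower genes in all, against 314 and 291 as reported. The median log2 difference of the members was -0.20 and that of all genes -0.17, equal to the log2 ratio between the floors. In a bulk sample fewer cells of a type and less RNA per cell cannot be told apart.

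At 6 h 4 of 50 measured members were at least 2-fold higher on the array labelled estradiol and 3 were lower, 8.0% and 6.0%, against 6.88% and 5.41% of 3403 genes. These shares lie near those of all genes measured. Gng11, Adcy6, Pde6d and Rgs9 were higher, and Adcy4, Adcy5 and Rgs4 were lower. The median log2 difference was -0.01 for the members and -0.01 for all genes.

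Adcy4 and Rgs9 were past 2-fold at both times, Adcy4 lower at each and Rgs9 in opposite directions as labelled. With the 6 h labels exchanged Rgs9 would be the one lower at each and Adcy4 the one in opposite directions. Of 46 members measured at both times 18 were below 0 at 24 h and above 0 at 6 h, 9 the other way, 12 below 0 at both and 7 above 0 at both. Opposite signs made up 58.7% of the members and 57.0% of 3226 genes, and with the 6 h labels exchanged they would make up 41.3% and 43.0%. The members lie close to all genes either way.

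**Figure D2:**
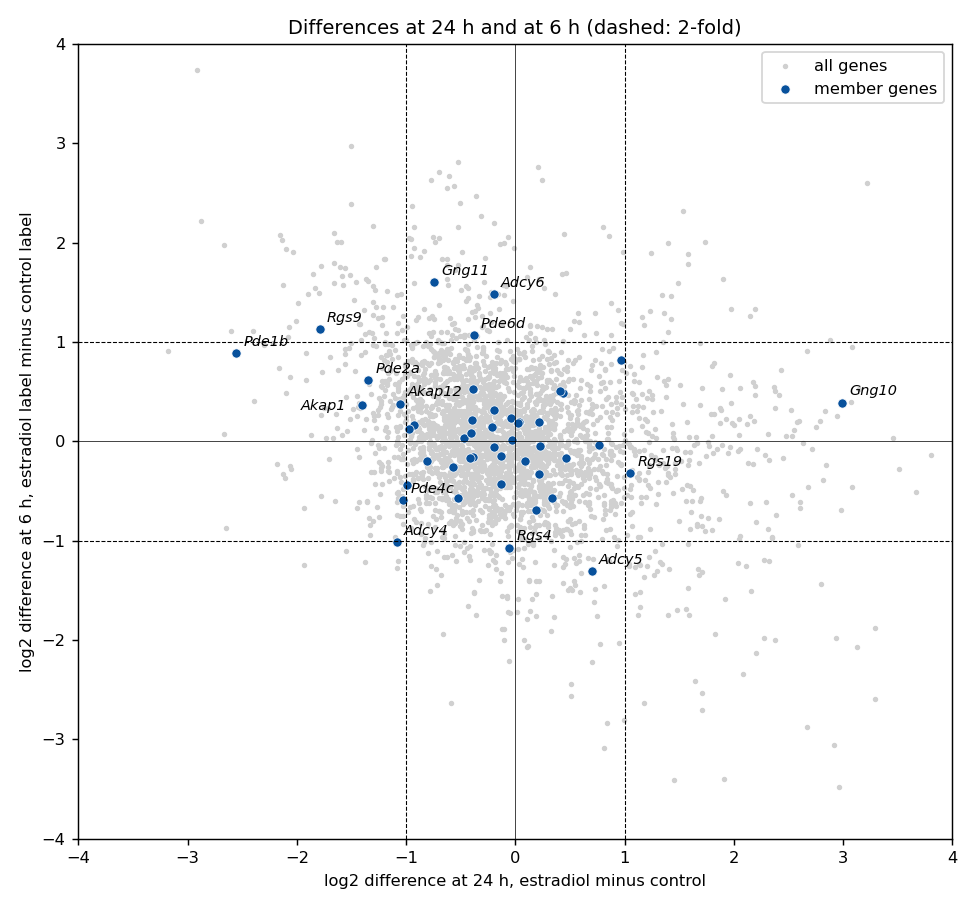
Log2 difference at 24 h (estradiol minus control, horizontal axis) and at 6 h (estradiol label minus control label, vertical axis) for 3226 genes measured at both times (grey) and the 46 members among them (blue), with the members past 2-fold named and dashed lines at 2-fold. Gng10 lies far to the right near 0 on the vertical axis, Pde1b and Rgs9 lie at the upper left, and most members lie within the dashed square.

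The promoters of 6 members are shown for reference, as the 250 bases before the annotated start in RefSeq on the build GRCr8. Gng10 and Gng11 are G gamma genes with large differences at different times, Rgs9 and Adcy4 passed 2-fold at both times, Rgs4 did so at 6 h, and Gnao1 is the one member whose promoter held the full cyclic AMP response element. Capitals mark exact matches on either strand to that element (TGACGTCA), the GC box (GGGCGG), the TATA box (TATAAA) and the AP-1 site (TGACTCA); neighbouring GC boxes can touch or overlap.
Gng10 promoter, chr5:78650917-78651166, plus strand: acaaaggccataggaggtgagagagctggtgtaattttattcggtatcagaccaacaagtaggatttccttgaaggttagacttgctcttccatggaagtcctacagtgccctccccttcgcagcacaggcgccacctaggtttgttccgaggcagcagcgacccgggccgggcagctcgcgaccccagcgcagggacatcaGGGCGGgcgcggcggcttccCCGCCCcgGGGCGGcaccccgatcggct
Gng11 promoter, chr4:32977431-32977680, plus strand: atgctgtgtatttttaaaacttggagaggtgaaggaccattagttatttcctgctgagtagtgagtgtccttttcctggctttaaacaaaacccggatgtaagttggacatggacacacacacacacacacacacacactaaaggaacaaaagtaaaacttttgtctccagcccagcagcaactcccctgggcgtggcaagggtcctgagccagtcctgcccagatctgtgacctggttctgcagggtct
Rgs9 promoter, chr10:94770388-94770637, minus strand: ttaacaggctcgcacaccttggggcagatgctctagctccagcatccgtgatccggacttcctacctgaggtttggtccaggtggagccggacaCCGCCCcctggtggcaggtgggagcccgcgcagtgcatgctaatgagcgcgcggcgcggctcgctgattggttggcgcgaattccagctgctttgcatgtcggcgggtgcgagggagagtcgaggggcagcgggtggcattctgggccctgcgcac
Rgs4 promoter, chr13:84475885-84476134, minus strand: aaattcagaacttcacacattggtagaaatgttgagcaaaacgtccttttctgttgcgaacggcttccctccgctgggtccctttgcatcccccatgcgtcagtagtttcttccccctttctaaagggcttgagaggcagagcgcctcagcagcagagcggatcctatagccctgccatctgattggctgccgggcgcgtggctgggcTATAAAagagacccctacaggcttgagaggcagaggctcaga
Adcy4 promoter, chr15:33252027-33252276, minus strand: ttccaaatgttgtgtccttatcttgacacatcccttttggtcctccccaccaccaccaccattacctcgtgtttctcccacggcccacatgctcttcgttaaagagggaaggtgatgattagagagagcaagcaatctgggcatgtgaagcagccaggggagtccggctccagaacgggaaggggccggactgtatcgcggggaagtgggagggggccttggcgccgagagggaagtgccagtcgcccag
Gnao1 promoter, chr19:11198438-11198687, minus strand: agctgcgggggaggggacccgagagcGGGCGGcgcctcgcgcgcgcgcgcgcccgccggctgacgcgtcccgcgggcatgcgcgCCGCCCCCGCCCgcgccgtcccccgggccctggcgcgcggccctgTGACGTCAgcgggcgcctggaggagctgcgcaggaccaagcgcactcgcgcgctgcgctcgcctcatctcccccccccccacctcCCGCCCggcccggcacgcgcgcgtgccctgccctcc

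RefSeq promoters were matched by symbol for 51 of the 65 genes, which gave 63 promoters because some genes have several starts. The cyclic AMP response element was found in 1 of 63, Gnao1, or 1.59%, against 1.59% of 33469 promoters and 2.31% of the 4206 that belong to genes named on the array. A GC box was found in 33, or 52.4%, against 30.5% of all promoters and 52.5% of those of array genes, which is close to the latter. The TATA box was found in 7.94%, against 12.9% of all promoters and 10.8% of those of array genes. The AP-1 site was found in 3.17%, against 4.05% and 3.83%. The palindromic estrogen response element, GGTCA and TGACC with any 3 bases between them, was found in 0 of 63 and in 0.0239% of all promoters. Among the promoters shown, Gng10 held 3 GC boxes, which start 48, 28 and 20 bases before the annotated start, Rgs4 a TATA box 42 bases before it, and Gnao1 its response element 121 bases before it, while Gng11 and Adcy4 held no match to any of these motifs. A match is a run of letters and no shown binding site.

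Among the G alpha subunits none of 7 measured genes was 2-fold apart at 24 h and none of 6 at 6 h. Over all genes measured 9.12% were higher and 8.45% lower at 24 h, and 6.88% and 5.41% at 6 h. The class has too few genes to be set apart by these counts. Gnas, which encodes the Gs alpha subunit that activates adenylyl cyclase, read 15228 with estradiol and 12071 without at 24 h, and 6402 and 9475 in the same order of labels at 6 h. The difference was 1.26-fold at 24 h and 1.48-fold in the other direction at 6 h. Its 4 measured probe sets did not share a sign: their log2 differences ran from -0.27 to 0.34 at 24 h and from -0.57 to 0.50 at 6 h. Gnai2, the Gi alpha subunit that restrains the cyclase, read 4756 and 3516 at 24 h and 3984 and 2841 at 6 h. It was 1.35-fold and 1.40-fold higher with the estradiol label, but its 3 probe sets ran from -0.47 to 0.44 on the log2 scale at 24 h.

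Gnao1, the Go alpha subunit abundant in nerve, read 279.8 with and 165 without estradiol at 24 h and 225 and 231 at 6 h. It was 1.70-fold higher at 24 h, and its second probe set gave a log2 difference of 0.83 beside the first one's 0.76. Gna12, of the G12 family, read 430.4 and 472 at 24 h and 323 and 357 at 6 h. Gna15, a Gq family subunit of blood cells, Gnaz and Gnai1 differed by at most 1.32-fold at 24 h.

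Of the G beta subunits, which with G gamma form the dimer released from the alpha subunit, 3 were measured at 24 h and none was past 2-fold. With 9.12% of all genes higher and 8.45% lower, 3 genes are too few to set the class apart. Gnb2 read 2795 and 2622 at 24 h and 2234 and 2568 at 6 h, 1.07-fold higher and 1.15-fold lower with the estradiol label. Gnb1 read 536 and 793 at 24 h and 1397 and 1672 at 6 h. Both values at 24 h lay under both at 6 h, and the 24 h control was 2.11-fold below the labelled 6 h control. Neither of its other probe sets passed 2-fold between the controls, and the 3 ran from -0.57 to 0.66 on the log2 scale at 24 h. Gnb4 was above the floor only on the array labelled control at 6 h, at 156.

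Gnb5 is the beta subunit that pairs with the RGS family of Rgs9. It read 160.4 with and 319 without estradiol at 24 h and 171 and 232 at 6 h, so both estradiol labels lay under both controls. The difference was 1.99-fold at 24 h, just under the rule, and its second probe set gave a log2 difference of -1.19.

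Gng10 had the largest difference of all members at 24 h with signals raised to the floor, which leaves those of Pde1b and Rgs9 as lower bounds. It read 2163 with and 272 without estradiol at 24 h, and 1548 and 1182 at 6 h (probe set rc_AA799996_at). The difference was 7.96-fold at 24 h and 1.31-fold at 6 h. The 24 h control stands apart, at least 2-fold below each of the other 3 arrays, and the 24 h control was 4.35-fold below the labelled 6 h control. Such a gap set that array apart for 129 genes, of which Gng10 was the only member, more than the 56, 13 and 49 genes that were lower on the 24 h estradiol array and on those labelled estradiol and control at 6 h. That array is also the one with the wash error, whose part in this was not tested.

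Gng11, a gamma subunit of the farnesylated group, read 544 with and 913 without estradiol at 24 h, and 765 and 252 at 6 h (rc_AA860043_at). It was 3.04-fold higher with the estradiol label at 6 h and 1.68-fold lower at 24 h. Here the array labelled control at 6 h stood apart, at least 2-fold below each of the others. Gng5 read 1999 and 2608 at 24 h and 1910.0 and 2134 at 6 h. Gng7 read 262 and 497 at 24 h and 531 and 474 at 6 h, 1.90-fold lower at 24 h and 1.12-fold higher at 6 h. Its second probe set did not share the sign at 6 h: it was 1.27-fold lower at 24 h and 1.7-fold lower at 6 h. Gng8 differed by at most 1.16-fold at either time.

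Of 7 measured RGS genes 1 was higher and 1 lower at each time. The shares of all genes were 9.12% higher and 8.45% lower at 24 h, and 6.88% and 5.41% at 6 h. These 7 genes are too few to set the class apart. Rgs9, known for ending phototransduction and for its role in dopamine-responsive neurons, read 28.0 with and 309.8 without estradiol at 24 h, and 237 and 98.2 at 6 h (AB019145_s_at). It was lower at 24 h, at least 3.46-fold, and higher on the estradiol label at 6 h, at least 2.19-fold, with the dimmer array under its floor each time. Its only probe set is of the kind shared by related transcripts. Rgs19, which acts on Gi alpha subunits, read 502 and 242 at 24 h and 229 and 285 at 6 h (AF068136_at). It was 2.07-fold higher with estradiol at 24 h, and that array was above the other 3, which lay between 229 and 285.

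Rgs4, which acts on Gi and Gq alpha subunits, read 99.4 and 103 at 24 h and 27.1 and 215 at 6 h (U27767_at). It was at least 2.10-fold lower with the estradiol label at 6 h, and the array labelled control at 6 h was at least 2-fold above each other array at the floors used. Both 24 h values lay just above their floors of 89.5 and 101. Rgs14, which binds Gi alpha subunits, read 208 and 179 at 24 h and 537 and 677 at 6 h, so its arrays split by time, with the 24 h control 3.77-fold below the labelled 6 h control. Rgs22 read 182 and 358 at 24 h and 278 and 255 at 6 h, 1.97-fold lower with estradiol at 24 h. Rgs12 and Rgs18 were 1.31-fold and 1.32-fold lower at 24 h.

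Adenylyl cyclases make cyclic AMP from ATP, and their isoforms differ in how calcium and G beta gamma act on them. Adcy4, an isoform that G beta gamma stimulates, read 78.3 with and 190.2 without estradiol at 24 h and 105 and 213 at 6 h (M80633_at). It was at least 2.12-fold lower at 24 h and 2.02-fold lower at 6 h, and both arrays labelled estradiol lay under both controls. As labelled, it was the only member past 2-fold in the same direction at both times, and it was under 2-fold at each with common median scaling and with quantile normalization.

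Adcy5 and Adcy6, the isoforms that calcium inhibits, differed at 6 h in opposite directions. Adcy5 read 378 and 233 at 24 h and 246 and 606 at 6 h (M96159_at). It was 2.47-fold lower with the estradiol label at 6 h and 1.62-fold higher with estradiol at 24 h, so the 24 h estradiol array and the array labelled control at 6 h were the higher ones. Its other 2 probe sets were under the floor on every array. Adcy6 read 306 and 351 at 24 h and 684 and 244 at 6 h (L01115_at). It was 2.80-fold higher with the estradiol label at 6 h and 1.15-fold lower at 24 h, with the array labelled estradiol at 6 h above the rest.

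Adcy2 read 288 and 415 at 24 h and 439 and 653 at 6 h, 1.44-fold and 1.49-fold lower with the estradiol label. Adcy3 read 414 and 355 at 24 h and 580.2 and 597 at 6 h and differed by at most 1.17-fold. Adcyap1, which encodes PACAP, a peptide that activates the cyclase through its receptor, read 191 and 138 at 24 h and 151 and 170.4 at 6 h. The receptor gene Adcyap1r1 read 44.3 and 101 at 24 h and 44.1 and 154 at 6 h, above the floor only on the array labelled control at 6 h.

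Of 9 measured phosphodiesterases 3 were lower and 0 higher at 24 h, where 8.45% of all genes were lower and 9.12% higher. Their median log2 difference was -0.41, against -0.17 for all genes, and under common median scaling and quantile normalization Pde4c dropped out of the 3. At 6 h 1 was higher and 0 lower, against 6.88% and 5.41% of all genes. The median there was 0.20, against -0.01 for all genes. With 1 array per group these differences from all genes were not tested. Pde1b, the calmodulin-dependent enzyme that calcium activates, read 29.8 with and 527 without estradiol at 24 h, and 408 and 220.1 at 6 h (M94537_at). It was at least 5.89-fold lower at 24 h, the largest decrease among the members on this scale, and the estradiol array at 24 h was at least 2-fold below each of the other 3. At 6 h it was 1.85-fold higher with the estradiol label. Pde2a, which cyclic GMP stimulates, read 78.9 and 228 at 24 h and 166 and 46.1 at 6 h (U21101_at). It was at least 2.54-fold lower at 24 h and at least 1.53-fold higher at 6 h, with the 24 h estradiol array and the array labelled control at 6 h under their floors.

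Of the cyclic AMP-specific Pde4 genes only Pde4c passed the rule, at 24 h. Pde4c read 247 and 504 at 24 h and 211 and 317 at 6 h (L27061_g_at). It was 2.04-fold lower at 24 h, close to the rule, and lower by a log2 difference of -0.59 at 6 h. The other probe set of Pde4c was under the floor on every array. With averaged probe sets Pde4c was under 2-fold at 24 h. Pde4a read 304 and 313 at 24 h and 503 and 428 at 6 h, and Pde4b 394 and 385, then 377 and 329. By these probe sets both differed by at most 1.18-fold at either time. The second probe set of Pde4a was at least 1.54-fold lower at 24 h and at least 1.25-fold higher at 6 h, with the dimmer array under its floor each time. Pde4d was 1.33-fold lower at 24 h and at least 1.12-fold lower at 6 h.

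Pde6d, whose product carries prenylated proteins in addition to its part in the photoreceptor enzyme, read 217 and 282 at 24 h and 293 and 139 at 6 h (rc_AA875045_at). It was 2.10-fold higher with the estradiol label at 6 h, with the array labelled control at 6 h the lowest. Pde3a, which cyclic GMP inhibits, read 241 and 211 at 24 h and 50.2 and 166 at 6 h. The second value at 6 h is above its floor and the first is not, and the difference was at least 1.62-fold. Pde5a, the cyclic GMP-specific enzyme, read 101 and 146 at 24 h and was under the floor on both arrays at 6 h by its brighter probe set. The other, D89093_at, was above the floor only on the array labelled control at 6 h, at 123.

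**Figure D3:**
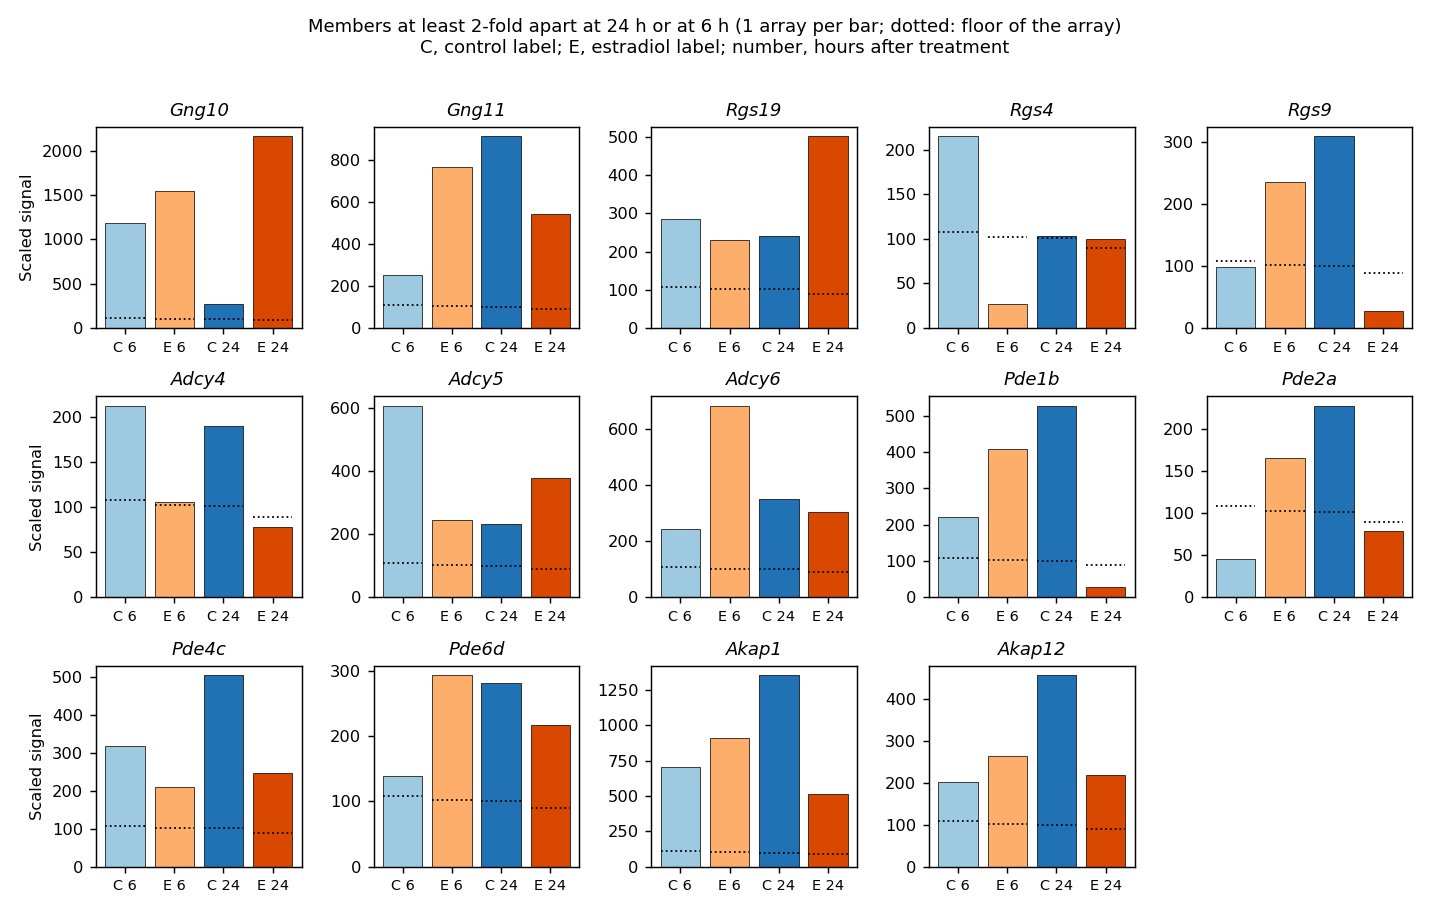
Scaled signal of the 14 members at least 2-fold apart at 24 h or at 6 h, 1 bar per array, with the floor of each array dotted. Pde1b, Rgs9 and Pde2a fall under the floor on the 24 h estradiol array, Gng10 is low on the 24 h control alone, and Adcy4 is lower on both arrays labelled estradiol.

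Among the protein kinase A subunits none of 5 measured genes was past 2-fold at 24 h, at 6 h or between the controls. Of all genes measured 9.12% were higher and 8.45% lower at 24 h, and 6.88% and 5.41% at 6 h. Between the controls these shares were 7.99% and 10.1%, so 5 genes are too few to set the class apart. Prkar1a, a regulatory subunit that holds the kinase inactive until cyclic AMP binds, read 1870.1 and 2140.3 at 24 h and 1105 and 1147 at 6 h. The estradiol and control arrays of each time lay within 1.14-fold and 1.04-fold, and the 24 h control was 1.87-fold above the labelled 6 h control. Prkacb, a catalytic subunit, read 1980.5 and 1949.6 at 24 h and 1369 and 1202 at 6 h, 1.02-fold and 1.14-fold higher with the estradiol label. The second probe set of Prkacb did not share the sign at 24 h, with a log2 difference of -0.50. Prkaca, the other catalytic subunit measured, read 472 and 356 at 24 h and 655 and 462 at 6 h. Its second probe set passed the rule at 6 h, with a log2 difference of 1.12 beside 0.50.

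Prkar1b read 1079 and 1495 at 24 h and 1637 and 1597 at 6 h, and Prkar2a was 1.09-fold lower at 24 h and 1.34-fold lower at 6 h. The AMP-activated kinase, an energy sensor that shares only its name's start with protein kinase A, did not pass the rule either: Prkag1 read 716 and 819.6 at 24 h and 792 and 638 at 6 h, and Prkab1 read 226 and 261, then 323 and 292. None of its 3 measured subunits at either time was past 2-fold. With 9.12% of all genes higher and 8.45% lower at 24 h, and 6.88% and 5.41% at 6 h, 3 are too few to set it apart.

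Of the 4 anchoring protein genes measured at 24 h 2 were lower and 0 higher, against 8.45% and 9.12% of all genes, too few genes to set the class apart. Akap1, which tethers protein kinase A to the outer membrane of mitochondria, read 512 with and 1352 without estradiol at 24 h and 907 and 704 at 6 h (AF068202_at). It was 2.64-fold lower at 24 h and 1.29-fold higher at 6 h. Its second measured probe set gave -0.67 on the log2 scale at 24 h, under the rule, and -0.23 at 6 h, the other sign. Akap12, known as gravin, which binds the kinase near beta-adrenergic receptors, read 220.4 and 457 at 24 h and 265 and 203 at 6 h (U41453_at). It was 2.08-fold lower at 24 h, and its second probe set gave -0.42 at 24 h and 1.03 at 6 h, the latter past the rule. Under common median scaling and quantile normalization Akap12 was under 2-fold at 24 h.

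Akap11 went the other way, with 578 and 295 at 24 h and 532 and 301 at 6 h. It was 1.96-fold and 1.77-fold higher with the estradiol label, and both labelled estradiol arrays lay above both controls. Under common median scaling and under quantile normalization it passed 2-fold at 24 h. Akap8, a nuclear anchor, read 671 and 1178 at 24 h and 1191 and 1369.5 at 6 h, 1.76-fold and 1.15-fold lower.

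Just inside the 2-fold rule at 24 h were Pde4c at 2.04-fold, Rgs19 at 2.07-fold and Akap12 at 2.08-fold, and just outside it were Gnb5 at 1.99-fold, Rgs22 at 1.97-fold and Akap11 at 1.96-fold. At 6 h Adcy4 at 2.02-fold lay just inside, and Pde1b at 1.85-fold just outside.

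Between the 2 arrays labelled control, 7 of 53 measured members (13.2%) were at least 2-fold higher at 24 h and 5 (9.43%) lower, against 7.99% and 10.1% of 3454 genes. Under common median scaling these were 9 and 3. This comparison shares an array with each of those above, and so is no separate support for them. It also rests on the 6 h labels. With those exchanged, the 24 h control would be set against an estradiol array. The array labelled control at 6 h exceeded the 24 h control 11.84-fold for Igf1, 4.76-fold for Hsd11b2, 4.08-fold for Pgr and 3.0-fold for S100g. Whether the differences listed next go with time or with treatment was not tested. Higher at 24 h were Gng11, Rgs9, Pde1b, Pde2a, Pde6d, Akap12 and Rgs18, an RGS protein of platelets. Rgs18 read 227 on the 24 h control and 80.0, under its floor, on the labelled 6 h control, at least 2.10-fold apart. Lower at 24 h were Gng10, Gnb1, Rgs14, Rgs4 and Adcy5. Gng10 was 4.35-fold lower and Rgs14 3.77-fold lower, while Gng11 was 3.62-fold higher and Pde1b 2.40-fold higher.

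Genes with several measured probe sets show how far 1 gene can vary on the same array. At 24 h 9 of 13 such genes had probe sets of 1 sign, and the range within a gene had a median of 0.58 on the log2 scale and reached 1.22. At 6 h 7 of 11 had 1 sign, with a median range of 0.56. No member had probe sets past 2-fold in opposite directions.

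**Figure D4:**
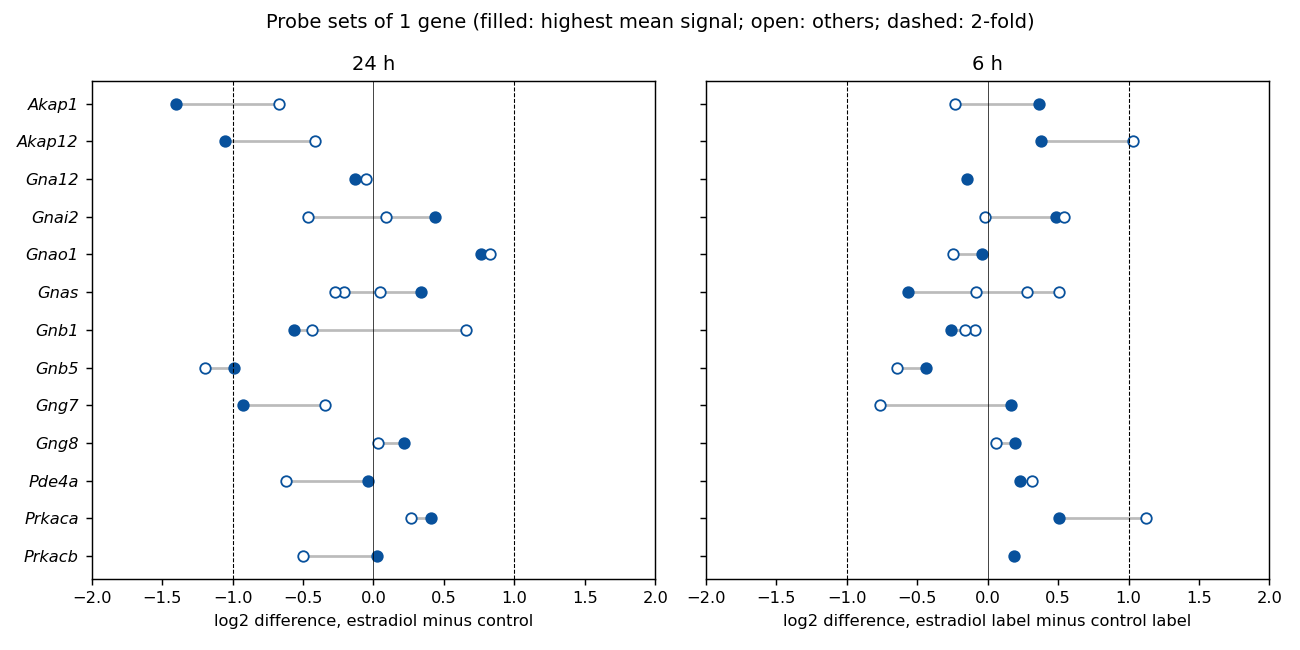
Log2 difference of each measured probe set of the 13 members with several, at 24 h (estradiol minus control) and at 6 h (estradiol label minus control label); filled points are the probe set of highest mean signal and dashed lines mark 2-fold. The points of Gnb1, Gnai2 and Gnas lie on both sides of 0 at 24 h, those of Gnb5 and Gnao1 close together.

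Other genes of the pathway, receptors, kinase inhibitors and targets in a list of 83 symbols, gave 58 genes on the array. At 24 h 2 of 40 measured were higher and 4 lower, with a median log2 difference of -0.29, against 9.12%, 8.45% and -0.17 for all genes. At 6 h 2 of 39 were higher and 1 was lower (median -0.05), against 6.88% and 5.41%. The lower genes at 24 h included 3 receptors that couple to Gs, while other such receptors in the list did not pass the rule, among them Lhcgr at 0.19, Ptgir at 0.08, Hrh2 at -0.13, Pth1r at -0.24, Glp1r at -0.81, Vipr1 at -0.85 and Adora2b at -0.96 on the log2 scale. Calcrl, the receptor of calcitonin gene-related peptide and adrenomedullin, read 124 with and 363 without estradiol at 24 h and 214 and 157 at 6 h, 2.93-fold lower at 24 h. Adrb3, the beta3-adrenergic receptor, read 123 and 333 at 24 h and 376 and 421 at 6 h, 2.70-fold lower at 24 h. Adora2a, an adenosine receptor, read 213 and 435 at 24 h and 345 and 542 at 6 h, 2.04-fold lower at 24 h.

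Among effectors, Ppp1r1a, a phosphatase inhibitor that protein kinase A switches on, read 438 and 171 at 24 h and 443 and 291 at 6 h, 2.56-fold higher at 24 h. Rhoa, the small GTPase downstream of G12 proteins, read 1138 and 484 at 24 h and 648 and 1195 at 6 h, 2.35-fold higher at 24 h. Pln, the protein kinase A substrate that restrains the calcium pump, was 3.16-fold lower at 24 h and 3.47-fold higher with the estradiol label at 6 h, with 124 and 391 and then 387 and 112. Crem, a cyclic AMP-responsive transcription factor gene, read 504 and 831 at 24 h and 677 and 1845 at 6 h, 2.73-fold lower with the estradiol label at 6 h. Plcb4, the phospholipase that Gq activates, read 407 and 548 at 24 h and 688 and 294 at 6 h, 2.34-fold higher with the estradiol label at 6 h.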

How the data were processed

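Signals were measured in 4 pools of rat myometrium, 1 array of type RG_U34A each. The authors deposited linear probe set intensities, made with MAS5 per the submitters' processing notes, with no version given in the sources used here. Also read were the deposited instrument records, which hold other values (chip lot, scan day and wash errors).

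Each column had a 2% trimmed mean of 500, so scaling to that target left the intensities as deposited. The 59 control probe sets were left out. Any signal below its array's 40th percentile was set to that percentile before log2 was taken. A gene was represented by its probe set of highest mean signal, and its call needed a 2-fold difference with the brighter array above its floor. A fold is written as at least N-fold where the dimmer array is at its floor. A comparison covers genes above the floor on at least 1 of its 2 arrays. Probe sets were named from a platform table, which gave 1 symbol for 7018 of 8799, several for 308 and none for 1473, and all 65 member genes matched RefSeq by gene identifier with no symbol changed. Signals of different probe sets are not compared as transcript levels, since probes differ in affinity.

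With 1 array per group, no test was made, and the number of arrays limits the precision. The members and lists were chosen with earlier results of these data known. Values on all arrays are given for members past the rule at 24 h or 6 h and for the 2 of highest mean signal in each class; others named were chosen after their values were seen. Of 83 pathway symbols and 7 marker lists, the counts at 24 h and 6 h are given. The fold rule was run on simulated arrays whose changed genes were shifted by more than 2-fold, so that run does not bear on calls near 2-fold. Alternatives were common median scaling, quantile normalization, a lower floor (20th percentile), a higher floor (60th percentile), a pseudocount of 50, 1.5-fold and 3-fold rules, averaged probe sets per gene, and dropping less specific probe sets. Python 3.11.15, numpy 2.4.6, pandas 2.3.3 and matplotlib 3.10.9 were used.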

Additional observations from a re-analysis of the deposited data

Results flagged for a closer look

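Rgs9 was past 2-fold in opposite directions at the 2 times, with a log2 difference of -1.79 at 24 h and 1.13 at 6 h, both set against a floor. With the 6 h labels exchanged, the second would be -1.13, the same direction as at 24 h. The difference between the times was not tested, since each group has 1 array.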

How the results depend on the processing

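The counts of members rest on the fold and the floor. At 24 h the main counts were 2 higher and 7 lower. The lower count became 4 with arrays scaled to a common median, with quantile normalization and with a pseudocount, 3 with the floor at the 60th percentile, 12 with a 1.5-fold rule and 2 with a 3-fold rule. With averaged probe sets it was 5, without Akap1, Akap12 and Pde4c and with Gnb5 added. The higher count became 1 with a pseudocount, 5 at 1.5-fold and 1 at 3-fold. At 6 h the counts of 4 higher and 3 lower became 7 and 7 with the floor at the 20th percentile, 2 and 1 at the 60th, 7 and 6 at 1.5-fold, and 1 and 0 at 3-fold, and the lower count 5 with a pseudocount. With averaged probe sets the 6 h lower count was 2, without Adcy5. Between the controls the counts of 7 higher and 5 lower became 12 and 9 at 1.5-fold and 1 and 2 at 3-fold. The higher count became 2 with the floor at the 60th percentile, and the lower count 3 with a common median or with averaged probe sets. The median of the members moved to -0.059 at 24 h with a common median and to 0.14 at 6 h with the floor at the 60th percentile. The cause was not tested, except that the higher and lower fold rules and floors pass fewer or more genes by construction. Of 531 values of named members under the alternatives 487 kept their side of the rule, 34 fell under it and 10 passed it. None that was past 2-fold changed sign. Part of this was fixed in advance. The 1.5-fold and 3-fold rules reuse the same differences, so no sign could change under them. A 1.5-fold rule could lose no call and a 3-fold rule could gain none. Averaging changes nothing for a gene with 1 probe set. The 531 leave out values that an alternative no longer measured. Some lost calls, such as those of Rgs9 without the less specific probe sets, are therefore not among the 34. Rgs9 has no probe set left without the less specific ones. Signal near the floor limits Rgs4, Rgs9, Pde2a and Adcy4.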
